A study of Mus musculus with 12 samples.

Results

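Cultures in Matrigel were set against floating aggregates of the same cells, in 8 of the 12 one-colour Affymetrix mouse 430A arrays of a study of bipotential mouse embryonic liver (BMEL) cells. The arrays were chosen by their sample titles, 4 of Matrigel culture and 4 of aggregate culture, and the other 4, of basal culture, served as a reference level. BMEL lines are immortal lines derived from embryonic liver (day 14, strain CBA/J x C57Bl/6J) whose cells can take on features of hepatocytes or of bile duct cells. The 2 lines, 9A1 and 14B3, were isolated independently of each other, and each group held 2 arrays: aggregate_9A1 and aggregate_14B3 after 5 days, Matrigel_9A1 after 10 days, and Matrigel_14B3 after 5 days (replicate 1) and 10 days (replicate 2). No day was given for the basal cultures, basal_9A1 and basal_14B3, and no group carried a transgene or drug in the labels. Culture and days cannot be told apart in this comparison except at the 5-day Matrigel array, whose values are given beside the others.

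Matrigel is a gel extracted from a mouse sarcoma, rich in the basement membrane proteins laminin and type IV collagen, on or in which epithelial cells can form hollow units and branched cords. Floating aggregates lack a plate or gel to hold on to, and liver progenitors cultured that way make cell-to-cell contacts on all sides. In the liver, hepatocytes carry out bile, lipid, nitrogen and drug metabolism and divide little, whereas bile duct cells and progenitors rest on a basement membrane through integrins.

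Values were log2 signal intensities, in which 1 unit is a doubling, and changes are given as Matrigel minus aggregate, averaged over the lines. They were tested with limma over 12393 genes with Benjamini-Hochberg adjustment at 0.05, and "higher" or "lower" below means that the gene passed this test. The design text calls the duplicates biological and says no more on how they were kept apart, so the p-values reflect the scatter among these arrays, which may in part be technical. Median intensity per array lay between 268 and 281, and the number of arrays limits the precision. As a rough guide to dim signal, 48 genes of brain, muscle, retina, pancreas and other tissues had a median level of 7.27 and a 90th percentile of 8.59, so a level at or below 8.59 may be background and a change that starts there may be understated. These genes had a median change of -0.20 with 2 of 48 called lower, against a median of -0.10 over all genes. Those 2 became 8 with the replicate number as a block, 5 with arrays centred on their median, 0 without replicate 1 of either Matrigel group or either array of aggregate_9A1, 1 without any basal array, and 6, 6 and 7 without aggregate_14B3 replicate 1, Matrigel_14B3 replicate 2 and Matrigel_9A1 replicate 2.

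Culture was the leading source of variation among the 8 arrays. On the first principal component (53.4% of variance) the aggregates lay at -34.7 to -20.1 and the Matrigel arrays at 17.8 to 36.6. The second (21.5%) separated the lines. Over all genes 1728 (13.9%) were higher in Matrigel and 1579 (12.7%) were lower, of which 385 (3.11%) and 187 (1.51%) moved by at least 1 log2 unit. With the replicate number as a block the lower genes numbered 2550 (20.6%) and the higher ones 2138 (17.3%). Higher genes made up 52.3% of the calls, but 41.5% (1549 higher and 2181 lower) when each array was centred on its median. Groups of genes are described below by how many members passed, to be read against these shares.

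Hepatocyte markers and some bile duct markers lay above the dim range in both cultures. All 6 hepatocyte markers fixed for this check lay above 8.59 in both, with array means of 12.13 to 13.09 in aggregates and 11.71 to 12.38 in Matrigel. Of the 5 measured bile duct markers 3 did so (Krt7, Krt19 and Epcam), while Sox9 and the chloride channel gene Cftr were at 7.02 and 7.89 in aggregates and 7.33 and 7.57 in Matrigel. In basal culture Alb (8.08), Cps1 (7.41), Epcam (7.67), Sox9 (7.49) and Cftr (5.36) were at or below 8.59. The other hepatocyte and bile duct markers were above it there. The brush border and gut list had array means of 10.37 to 11.27 in aggregates and 9.9 to 10.34 in Matrigel. Markers of other cell types were dim: in aggregates 6 of 8 for blood, 6 of 7 for endothelium and 9 of 9 for stellate cells and fibroblasts were at or below 8.59, and in Matrigel 7 of 8, 7 of 7 and 9 of 9. The leukocyte gene Ptprc (6.01 and 5.84) and the endothelial gene Pecam1 (6.44 and 6.31) were among them. The blood marker array means spanned 7.48 to 7.87 in aggregates and 7.39 to 7.63 in Matrigel, the endothelial means 6.70 to 6.89 and 6.44 to 7.0, and the stellate means 6.92 to 7.18 and 6.78 to 7.36. The exceptions in aggregates were Csf1r, the macrophage growth factor receptor gene, at 10.84 (9.95 in Matrigel, a change of -0.88), and, close to the limit, Laptm5 at 8.67 and Kdr at 8.65. In Matrigel only Csf1r was above 8.59. Of the 9 stellate and fibroblast markers the collagen genes Col1a1 (7.60 to 8.18) and Col3a1 (5.38 to 6.26) were higher in Matrigel at these dim levels. These are bulk cultures, so fewer cells of a kind and less RNA per cell cannot be told apart.

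The largest rise was in a cell surface receptor, and caveola and annexin genes were higher with it. F2r, the receptor that thrombin cuts to signal (Entrez Gene 14062), gave log2 levels of 6.95 and 6.16 in the 9A1 aggregates and 7.28 and 6.65 in the 14B3 aggregates (replicate 1, then 2). In Matrigel it stood at 11.82 and 11.61 in 9A1 and at 10.09 and 10.00 in 14B3. All 4 Matrigel arrays lay above all 4 aggregate arrays, and basal cultures were higher still at 12.56. The mean change was 4.12 ± 0.18 (SE, 4 against 4 arrays, limma adjusted p = 1.96e-07). Caveolae are small pits of the plasma membrane coated by caveolins and cavins, which sense membrane tension. The caveolin gene Cav1 gave 7.38, 7.14, 7.65 and 7.35 in the aggregates and 10.44, 10.44, 9.76 and 10.11 in Matrigel. Here too the groups did not overlap, and the change was 2.81 ± 0.16 (SE, limma adjusted p = 1.44e-06). Lack of overlap was a condition for naming the 15 largest changes in each direction, so for those genes it is not separate support. Among all genes, 1463 (11.8%) lay above the aggregates without overlap in Matrigel and 1675 (13.5%) lay below them. Cav2 was higher by 2.19, and the cavin genes Cavin2, Cavin3 and Cavin1 by 1.47, 1.12 and 1.05. Annexins bind membranes in the presence of calcium, and Anxa1 and Anxa3 were higher by 2.82 and 2.59. In all, 14 of 22 measured genes of caveolae, annexins and thrombin signalling were higher and 0 lower (63.6% against 13.9% of all genes), with a median of 0.83, and of 1.11 in 9A1 and 0.65 in 14B3. Aggregate levels of F2r and Cav1 lie in the dim range, so both folds may be too small.

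**Figure D1:**
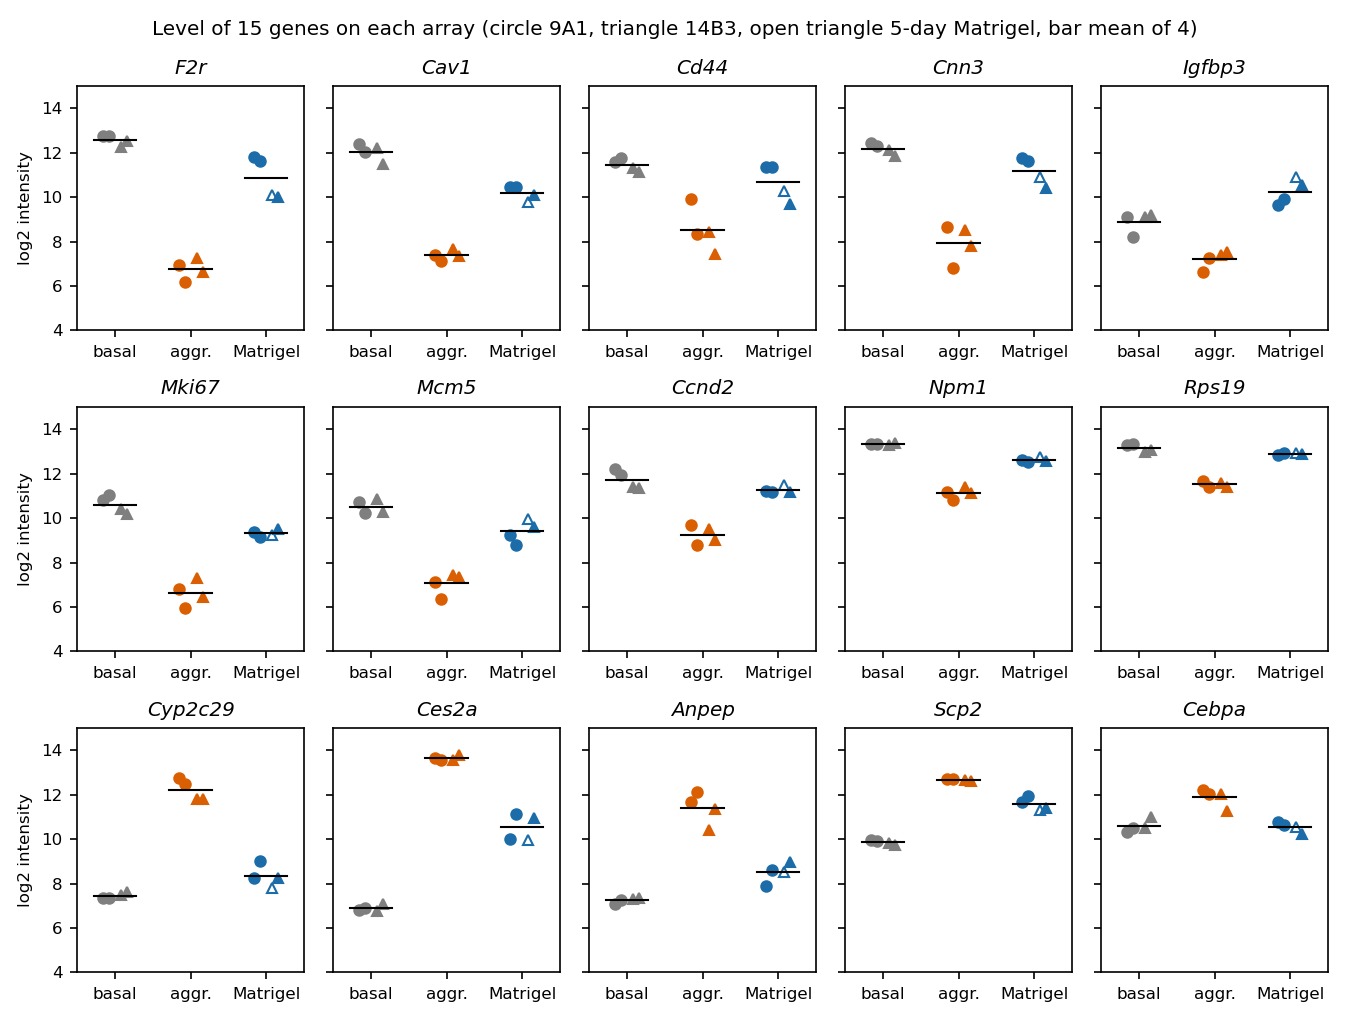
Log2 intensity of 15 genes on each of the 12 arrays, by culture, with circles for 9A1, triangles for 14B3, an open triangle for the 5-day Matrigel array and a bar at the mean of the 4 arrays of a culture. F2r is between 6.16 and 7.28 in aggregates and between 10.00 and 11.82 in Matrigel, while Cyp2c29 lies between 11.80 and 12.73 and between 7.80 and 9.03.

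Genes of the actin skeleton were also higher. Calponins bind actin and restrain myosin, and Cnn3 gave 8.67, 6.81, 8.54 and 7.79 in the aggregates and 11.78, 11.64, 10.92 and 10.41 in Matrigel. The spread among aggregates was wide (SD 0.86, n = 4), and the change was 3.23 ± 0.32 (SE, limma adjusted p = 3.01e-05). The cytoplasmic actin gene Actb, by contrast, stood at 13.81 ± 0.07 and 13.87 ± 0.06 (SD, n = 4 each) and did not pass. Among 39 measured genes of the actin cytoskeleton 20 were higher and 1 lower, with a median of 0.46. The higher ones included the calponin Cnn2 (2.10), the LIM proteins Fhl1 (1.86) and Csrp1 (1.73), smooth muscle actin Acta2 (1.17), the tropomyosins Tpm1 (1.09) and Tpm2 (0.90), and vimentin (Vim, 0.75). The lower one was the myosin light chain kinase gene Mylk (-0.57), and 3 were lower with the replicate block or with centred arrays. The median was 0.53 in 9A1 and 0.15 in 14B3, and 5 members of this list differed between the lines in their change. In the comparison of 5-day cultures 4 of the 39 were higher, beside 6.22% of all genes.

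YAP and TAZ are coactivators that enter the nucleus when cells spread or are stretched, and the Hippo kinases hold them back. Their well-known target Ccn2 gave 9.67, 8.44, 9.06 and 8.08 in aggregates and 12.18, 12.16, 10.08 and 10.14 in Matrigel, higher by 2.33 ± 0.35 (SE, limma adjusted p = 0.000484). Ankrd1 and Ccn1, also targets, were higher by 2.52 and 1.86. The TAZ gene itself (Wwtr1) and the DNA-binding partner Tead2 were higher by 1.29 and 1.35, and Yap1 was at 0.12 without a call. Of 24 measured members of the pathway and its targets 14 were higher and 1 lower, but 8 were higher without Matrigel_9A1 replicate 1 or without aggregate_9A1 replicate 2. The 1 lower became 0 without Matrigel_14B3 replicate 1, aggregate_14B3 replicate 2 or aggregate_9A1 replicate 2. Within 9A1 alone 11 were higher and 0 lower. Within 14B3 alone 1 was higher and 1 lower, beside 7.15% of all genes higher there. The change differed between the lines for 0 of the 24. In the comparison of 5-day cultures 0 of the 24 were called higher, with a median of 0.36, beside 6.22% of all genes called higher there. The 9A1 Matrigel arrays were the high ones for Ccn2, and also for Ankrd1, which gave 11.02 and 10.77 in 9A1 Matrigel and 8.45 and 7.88 in 14B3 Matrigel.

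Genes of the basement membrane, the matrix that the gel is made of, were higher too. Laminins are three-chain proteins that lay down the basement membrane, and the beta chain gene Lamb1 gave 6.47, 6.19, 6.69 and 6.70 in aggregates and 9.50, 9.12, 8.81 and 8.98 in Matrigel. The groups were far apart, by 2.59 ± 0.11 (SE, limma adjusted p = 1.96e-07), with basal cultures at 9.60. Nephronectin (Npnt), an integrin ligand of epithelial basement membranes, was higher by 2.66 at its brightest probe set. Its other probe sets gave 1.99, which was called, and 0.22, 0.24 and 0.06 without a call. The laminin chains Lamb3, Lamc1, Lama3 and Lama5 were higher by 1.28, 0.92, 0.52 and 0.48, and the type IV collagen chains Col4a2 and Col4a1 by 1.09 and 0.91. Altogether 10 of 21 basement membrane genes were higher and 1 lower (Col4a3, -0.32, from a dim level of 7.70), with a median of 0.48. The 1 became 0 without Matrigel_9A1 replicate 1, aggregate_14B3 replicate 2, either aggregate_9A1 array or any basal array. It became 2 without aggregate_14B3 replicate 1. Of 34 genes of the interstitial matrix 15 were higher and 2 lower. The 2 became 4 with the replicate block, 5 with centred arrays, 5 and 4 without Matrigel_9A1 replicate 2 and aggregate_14B3 replicate 1, and 1 with quantile normalization or without any other Matrigel or aggregate array. Fibronectin (Fn1) and Sparc were higher by 1.48 and 1.44. Igfbp7 was higher by 2.55 at its brightest probe set, but its other probe sets gave -0.21 and 0.26 without a call. Tgfbi was lower by a log2 change of -1.90. This list had a median of 0.56 in 9A1 and -0.12 in 14B3 and 3 of its genes differed between the lines in their change. A list of 22 stellate and fibroblast genes also had 5 higher in 9A1 alone and 0 in 14B3 alone, and the dim fibroblast collagens Col1a1 and Col3a1 were among the higher genes; their part in the matrix and actin results was not tested. In the 5-day comparison 1 of the 34 interstitial matrix genes was called higher. Tenascin C (Tnc), a glycoprotein of growing and healing tissue, shows the high 9A1 arrays: aggregates lay between 6.47 and 7.07, 9A1 Matrigel at 11.38 and 9.75, and 14B3 Matrigel at 8.07 and 8.40.

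Of 30 integrin and focal adhesion genes 10 were higher and 0 lower, with a median of 0.27. The actin crosslinker filamin A (Flna, 1.76), the kindlin Fermt2 (1.19), the fibronectin receptor chain Itga5 (1.10) and alpha-actinin Actn1 (1.03) led them. In the 5-day comparison 2 of the 30 were higher. The laminin receptor chain Itga6 was higher by 0.57 and the shared chain Itgb1 was at 0.39 without a call. Among 31 genes of matrix proteases and their inhibitors 10 were higher and 3 lower. The 3 became 7 with the block, 6 with centred arrays, 5 without aggregate_14B3 replicate 1, and 1 without any other aggregate array or either basal_9A1 array. Tissue plasminogen activator (Plat) gave 9.30, 9.09, 8.58 and 8.45 in aggregates and 11.19, 10.94, 10.41 and 10.30 in Matrigel, so that Matrigel was above in every array, by 1.85 ± 0.10 (SE, limma adjusted p = 1.32e-06). The membrane-bound protease Mmp14 (1.55), the urokinase receptor Plaur (1.34) and the inhibitors Timp1 (1.31) and Timp2 (1.13) were also higher.

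Some progenitor surface genes were higher. The hyaluronan receptor Cd44 gave 9.92, 8.33, 8.43 and 7.45 in aggregates and 11.35, 11.35, 10.27 and 9.71 in Matrigel. Here the groups overlap, since the first 9A1 aggregate (9.92) lies above the 10-day 14B3 Matrigel array (9.71), and the change was 2.14 ± 0.30 (SE, limma adjusted p = 0.000317). The tetraspanin Cd9 was higher by 2.18, Cd24a by 2.16 and the fetal hepatoblast protein Dlk1 by 1.23. Epcam (-0.26), Prom1 (0.24) and Cdh1 (0.00) did not pass, and the peptidases Anpep (-2.88) and Enpep (-1.79) and the protein Cd47 (-0.45) were lower. The change of Enpep differed between the lines. In this list 7 of 26 were higher (26.9% against 13.9% of all genes) and 3 lower (11.5% against 12.7%).

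Genes that copy DNA were higher almost throughout. The polymerases and their helicase act in S phase, and 29 of 34 measured replication genes were higher and 0 lower, with a median of 1.24 (85.3% against 13.9% of all genes). Rrm2, the subunit of ribonucleotide reductase that sets the supply of deoxynucleotides, ran from 6.22 to 8.70 in the 4 aggregates and from 10.64 to 11.49 in Matrigel, a 9.49-fold difference (adjusted p = 9.18e-06, limma). Hells, a chromatin remodeller, was higher by 2.66, and the helicase subunits Mcm5, Mcm7, Mcm4, Mcm6, Mcm2 and Mcm3 by 2.33, 2.16, 1.78, 1.27, 1.23 and 0.86. Pcna and Tyms were at -0.11 and -0.17 without a call. Aggregate levels of Rrm2 and Hells (7.72 and 6.13) were in the dim range.

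Among mitosis genes 34 of 41 were higher and 0 lower, with a median of 1.23. Mki67, the antigen used to mark dividing cells (Entrez Gene 17345), gave 6.82, 5.96, 7.31 and 6.47 in aggregates and 9.38, 9.14, 9.26 and 9.49 in Matrigel. The Matrigel arrays of both lines agreed within 0.15 (SD, n = 4), all above the aggregates, and below the basal mean of 10.61. Its change was 2.68 ± 0.21 (SE, limma adjusted p = 6.3e-06). The survivin gene Birc5 was higher by 2.85, topoisomerase Top2a by 2.49, the ubiquitin enzyme Ube2c by 2.44, the kinase gene Cdk1 by 1.83 and the cyclins Ccnb2 and Ccna2 by 1.76 and 1.68. Pttg1, Kif2c, Cenpe, Foxm1, Nek2, Kif4 and Ndc80 did not pass. In the mean over the list the 4 Matrigel arrays lay between the aggregates and the basal cultures.

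**Figure D2:**
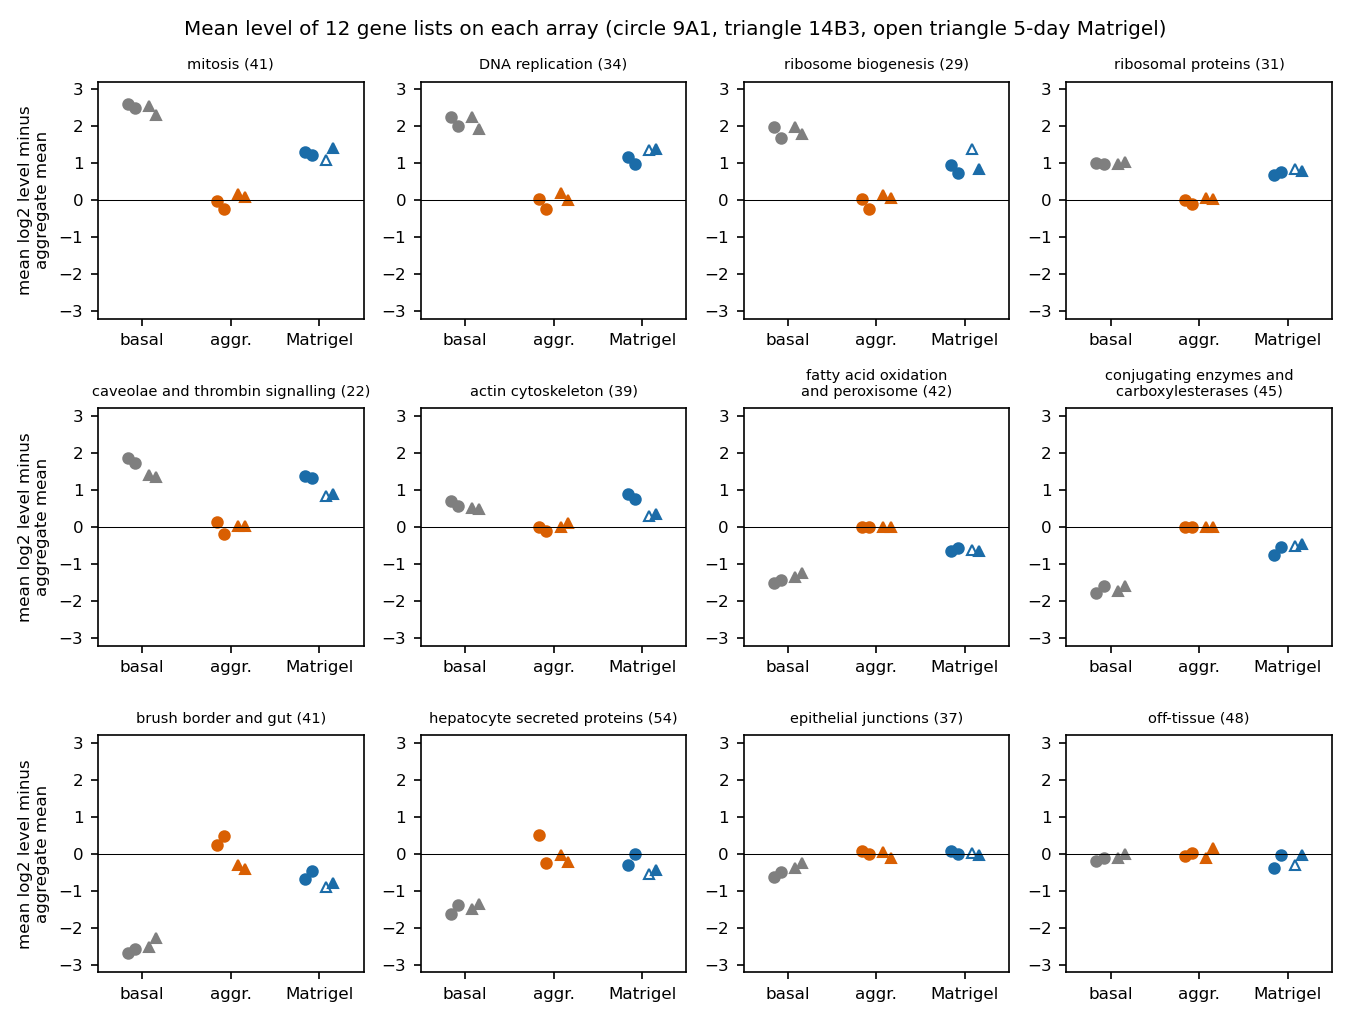
Mean log2 level of 12 gene lists on each of the 12 arrays, less the mean of the 4 aggregate arrays, with the number of genes measured in brackets and the 5-day Matrigel array as an open triangle. Division and ribosome lists lie between aggregate and basal levels in Matrigel, as do fatty acid oxidation and conjugating enzymes from the other side, while epithelial junctions and genes of other tissues lie near 0 in aggregates and in Matrigel.

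Promoters are shown for these genes because many that peak in mitosis share short elements close to their start. The CHR core, TTTGAA, can be bound by the DREAM complex and the CCAAT box by NF-Y. E2F factors bind sites such as TTCCCGC and TTGGCGC at S phase genes. The letters were sought on both strands, with overlaps between motifs allowed, in RefSeq promoters of build GRCm38.p6 that run from 250 bases before to 50 bases after a start. The promoters below belong to called mitosis genes that hold both elements. Matches to TTTGAA and CCAAT on either strand are in capitals.
Mki67: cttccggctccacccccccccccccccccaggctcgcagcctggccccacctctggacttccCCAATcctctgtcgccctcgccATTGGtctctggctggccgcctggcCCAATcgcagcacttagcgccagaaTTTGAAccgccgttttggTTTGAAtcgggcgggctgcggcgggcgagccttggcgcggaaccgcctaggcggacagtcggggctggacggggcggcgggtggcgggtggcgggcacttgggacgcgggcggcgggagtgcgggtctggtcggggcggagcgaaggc
Top2a: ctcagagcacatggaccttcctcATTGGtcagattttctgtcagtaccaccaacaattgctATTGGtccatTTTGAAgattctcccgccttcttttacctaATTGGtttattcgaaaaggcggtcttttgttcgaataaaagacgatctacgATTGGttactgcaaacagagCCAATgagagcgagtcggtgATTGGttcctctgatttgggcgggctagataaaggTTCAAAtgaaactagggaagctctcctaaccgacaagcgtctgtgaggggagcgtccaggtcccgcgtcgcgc
Ube2c: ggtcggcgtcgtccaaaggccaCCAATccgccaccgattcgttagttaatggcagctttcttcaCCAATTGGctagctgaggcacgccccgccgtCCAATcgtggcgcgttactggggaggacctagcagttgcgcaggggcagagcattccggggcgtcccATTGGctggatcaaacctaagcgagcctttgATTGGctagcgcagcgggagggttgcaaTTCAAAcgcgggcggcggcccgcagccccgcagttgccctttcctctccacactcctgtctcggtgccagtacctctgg
Cenpa: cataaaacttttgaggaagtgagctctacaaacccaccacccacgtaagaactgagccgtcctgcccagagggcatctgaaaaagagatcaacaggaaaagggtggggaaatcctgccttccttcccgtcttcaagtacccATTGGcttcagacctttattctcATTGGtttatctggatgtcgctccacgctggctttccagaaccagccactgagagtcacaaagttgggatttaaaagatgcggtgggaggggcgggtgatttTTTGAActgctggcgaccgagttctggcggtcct

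They lie on the minus strand at chr7:135716330-135716629 (Mki67) and chr11:99024140-99024439 (Top2a) and on the plus strand at chr2:164769679-164769978 (Ube2c) and chr5:30666636-30666935 (Cenpa). Counting the start as 0, TTTGAA begins at -116 and -98 in Mki67 and at 16 in Cenpa, and reads on the other strand at -29 in Ube2c. RefSeq promoters matched 28 of the 34 called mitosis genes, 30 promoters in all. Of these 23 (76.7%) held TTTGAA, 24 (80.0%) CCAAT and 22 (73.3%) both. Over all 32841 promoters in the table the shares were 17.9%, 37.4% and 6.95%, and over the 12564 promoters of genes measured here 12.9%, 37.1% and 5.00%. Among the 32 promoters of called DNA replication genes 3 (9.38%) held TTTGAA and 19 (59.4%) TTCCCGC or TTGGCGC, against 6.81% of all promoters, 10.5% of those of measured genes and 16.7% of the mitosis promoters. The 11 promoters of called cholesterol synthesis genes, which were lower in Matrigel, held CCAAT in 9 (81.8%) and TTTGAA in 0. These are matches of letters, which do not show a bound site.

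**Figure D3:**
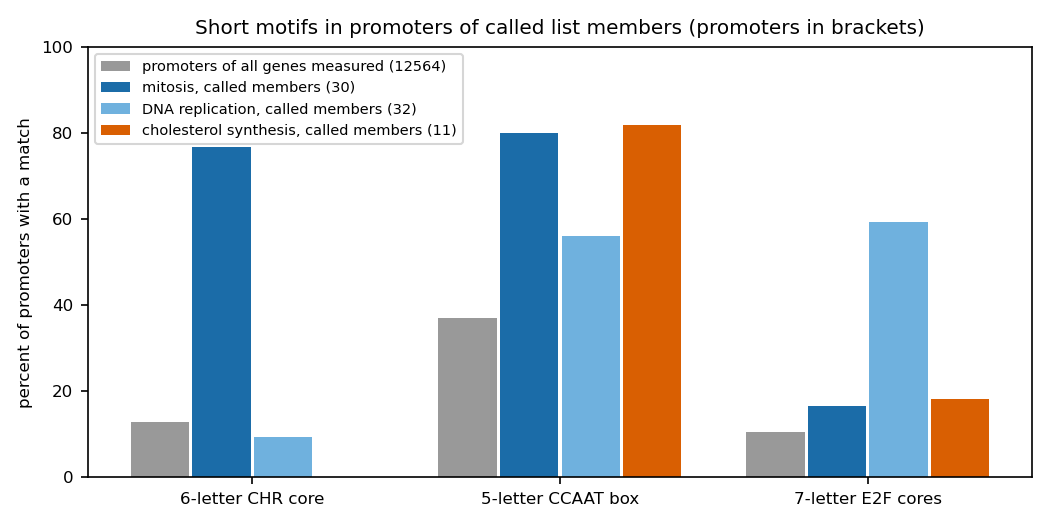
Percent of RefSeq promoters that hold each short motif on either strand, for the called members of 3 gene lists and for all genes measured, with the number of promoters in brackets. The CHR core is in 76.7% of mitosis promoters and 9.38% of DNA replication promoters, and the E2F cores are in 16.7% and 59.4%.

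Genes of entry into the cell cycle were called less uniformly, 10 of 28 higher and 2 lower (1 lower without Matrigel_9A1 replicate 2, aggregate_14B3 replicate 1 or aggregate_9A1 replicate 2). D cyclins with Cdk4 start G1, and Ccnd2 gave 9.68, 8.81, 9.50 and 9.03 in aggregates and 11.23, 11.17, 11.47 and 11.18 in Matrigel, 4.02-fold higher (adjusted p = 1.42e-05, limma). Ccnd1, Cdk4 and Myc were higher by 1.86, 1.56 and 1.33. The brakes Rb1 and Rbl2 were lower by a log2 change of -0.79 and -0.51, and Rbl2 did not pass without aggregate_14B3 replicate 1 (adjusted p = 0.0578, limma). The inhibitor gene Cdkn1a was at -0.30 without a call (adjusted p = 0.0866 in limma, and 0.0488 with the replicate block), and Cdkn1b was higher by 0.61.

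Ribosome genes were higher as well. Making ribosomes takes nucleolar factors that process ribosomal RNA, and 25 of 29 such genes were higher and 0 lower, with a median of 1.04. The nucleolar chaperone Npm1 gave 11.17, 10.80, 11.40 and 11.11 in aggregates and 12.60, 12.53, 12.77 and 12.57 in Matrigel, higher by 1.50 ± 0.11 (SE, limma adjusted p = 5.76e-06). Nop58, Nhp2 and Gar1, which guide the modification of ribosomal RNA, were higher by 1.71, 1.53 and 1.47. Of 31 ribosomal proteins 30 were higher and 0 lower, from 0.39 (Rps29) to 1.41 (Rpl14), with Rps27 at 0.09 without a call and a median of 0.71. Rps19 gave 11.69, 11.40, 11.56 and 11.40 in aggregates and 12.82, 12.94, 12.92 and 12.90 in Matrigel. All Matrigel arrays lay above all aggregate arrays. Ribosomal protein genes have many near-identical pseudogene copies in the mouse genome, so single members are uncertain on arrays.

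The amino acid genes did not move as a block. Psat1, which makes serine from a glycolytic intermediate, gave 6.42, 5.69, 6.45 and 6.64 in aggregates and 9.65, 9.05, 10.51 and 9.23 in Matrigel, 9.94-fold higher, and the other serine pathway genes Shmt2 and Phgdh were higher by 1.06 and 0.76. The value of Phgdh is that of its brightest probe set, and its other 3 probe sets gave 1.32, 2.85 and 2.89. Cth, which makes cysteine, and the stress factor Ddit3 were lower by -1.64 and -1.18 on the log2 scale, and Asns and Atf4 were at 0.07 and -0.05 without a call. The list of serine synthesis and amino acid starvation genes had 6 of 30 higher and 5 lower.

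Several of the largest rises had no place in these groups. Adenosine deaminase (Ada), which breaks down adenosine, gave 6.36, 5.95, 5.96 and 6.03 in aggregates and 9.57, 9.21, 9.36 and 10.97 in Matrigel. Basal cultures stood at 6.09, level with the aggregates, and the change from aggregates was 3.70 ± 0.27 (SE, limma adjusted p = 5.27e-06). The interleukin 1 receptor antagonist Il1rn was higher by 2.66 and Igfbp3, a carrier of insulin-like growth factors, by 3.05, both also above their basal means of 10.66 and 8.90. The prolactin family gene Prl2a1 was higher by 3.33 and the heparan sulphate sulphotransferase Hs6st2 by 2.73. Of the 15 largest rises 9 had their highest mean in basal culture and 6 had a basal mean below Matrigel, and 13 started from an aggregate level at or below 8.59.

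Many hepatocyte enzymes were lower in Matrigel, and the largest fall of any gene was in the drug metabolism gene Cyp2c29. Cytochromes P450 oxidise lipids and foreign compounds, and Cyp2c29 (Entrez Gene 13095) gave 12.73, 12.49, 11.82 and 11.80 in aggregates and 8.27, 9.03, 7.80 and 8.26 in Matrigel. The groups lay far apart, and the mean change was -3.87 ± 0.16 (SE, limma adjusted p = 1.96e-07). Cyp2c55 was lower by -3.28 on that scale, Cyp4f14 by -1.80 and Cyp3a11 by -1.54, and Cyp1b1 was higher by 1.33. The P450 list as a whole had 15 of 41 lower and 1 higher, and 26 of the 41 were in the dim range in both cultures. Carboxylesterases cut esters, and Ces2a gave 13.67, 13.56, 13.58 and 13.80 in aggregates and 10.01, 11.15, 9.98 and 10.95 in Matrigel, 8.75-fold lower and above its basal mean of 6.90. The glutathione transferase Gstm3 was 4.60-fold lower, and the glucuronosyltransferase Ugt2a3 was lower by -1.56 in log2. Among 45 conjugating enzymes and carboxylesterases 25 were lower and 1 higher (Ces2g, 1.11, and 2 higher with the replicate block), with a median of -0.42. Members of the Cyp2c, Ces, Gst and Ugt families are close copies of each other, so an array may not tell them apart.

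Fatty acid oxidation had the largest share of lower genes among the 45 lists. Peroxisomes and mitochondria shorten fatty acids by beta-oxidation, and 30 of 42 measured genes of this list were lower and 0 higher, 71.4% against 12.7% of all genes. Its median was -0.61, and -0.61 in 9A1 and -0.60 in 14B3. The peroxisomal thiolase gene Scp2 gave 12.69, 12.69, 12.64 and 12.63 in aggregates and 11.65, 11.94, 11.32 and 11.39 in Matrigel, so all 4 aggregates agreed closely and lay above Matrigel, by 2.12-fold (adjusted p = 1.31e-05, limma). Acot2, Phyh and Acox2 were lower by -1.41, -1.21 and -1.15 in log2, catalase (Cat) by -0.88 and the mitochondrial enzymes Cpt2, Acadl and Hadha by -0.82, -0.80 and -0.63. The gate enzyme of mitochondrial uptake, Cpt1a, was at -0.22 without a call. Storage of fat moved too: Dgat1, which makes triglyceride, gave 12.18, 12.41, 12.08 and 11.93 in aggregates and 10.63, 10.75, 10.46 and 10.61 in Matrigel, lower by -1.53 ± 0.10 (SE, limma adjusted p = 2.65e-06). The fatty acid uptake protein Cd36 was lower by -1.64, and Fads1 and Fabp5 were higher by 0.95 and 1.07. That list had 8 of 35 lower (13 with the replicate block) and 3 higher. In cholesterol synthesis 11 of 21 members were lower (0 higher), with Tm7sf2 at -1.07 and Dhcr7 at -1.03.

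Urea cycle and sugar genes were lower in part. The urea cycle disposes of ammonia, and Otc gave 8.40, 8.92, 8.80 and 8.20 in aggregates and 5.91, 6.56, 6.13 and 6.25 in Matrigel, where it was near its basal mean of 5.91. Cps1, the entry enzyme of the cycle, was lower by -1.60 ± 0.16 (SE, limma adjusted p = 3.5e-05), with 11.78 and 11.22 in 9A1 and 10.84 and 10.30 in 14B3 aggregates against 10.39, 10.53, 8.52 and 8.32 in Matrigel. Each line fell within itself, and the 9A1 Matrigel arrays overlap the 14B3 aggregates. The list held 11 of 34 lower and 4 higher. Of 20 genes of gluconeogenesis and sugar handling 10 were lower and 1 higher, with Tkfc (-1.84), pyruvate kinase Pklr (-1.54) and the glucose 6-phosphate transporter Slc37a4 (-1.23) in front and Pck1 at -0.18 without a call.

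**Figure D4:**
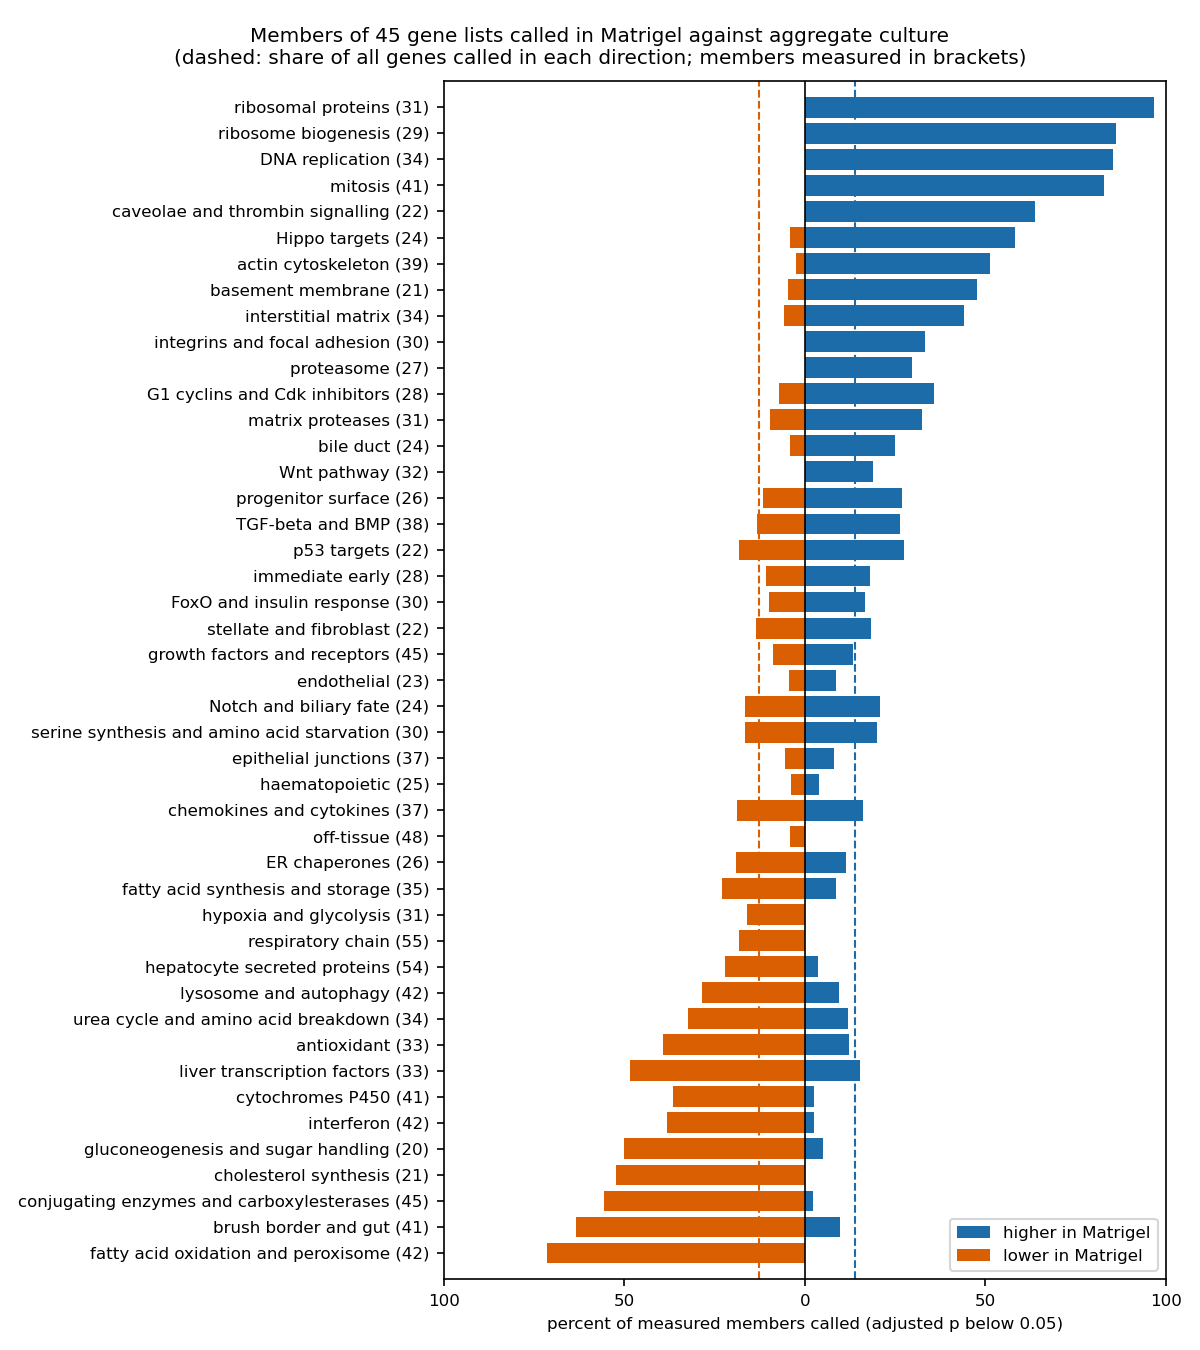
Percent of the measured members of 45 gene lists called higher (blue, to the right) and lower (orange, to the left) in Matrigel than in aggregates, with dashed lines at the shares of all genes (13.9% and 12.7%) and the number measured in brackets. Ribosomal proteins (96.8%) head the higher lists and fatty acid oxidation (71.4%) the lower ones.

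Of the proteins that hepatocytes secrete, most did not pass the test. Albumin (Alb) gave 13.69, 11.30, 13.16 and 11.66 in aggregates and 12.46, 12.64, 12.43 and 12.61 in Matrigel. The Matrigel arrays agree to an SD of 0.10, whereas in the aggregates replicate 1 was high and replicate 2 low in both lines, and the mean change was 0.08 ± 0.43 (SE, limma adjusted p = 0.893). Afp was at 0.58 (adjusted p = 0.142, limma) and Apoa1 at -0.38 without a call. Transthyretin (Ttr) was lower by -1.31 ± 0.27 (SE, limma adjusted p = 0.00345), the clotting factor F10 by -1.67 and Itih4 by -1.74. Of 54 secreted proteins 12 were lower and 2 higher, but 22 were lower without aggregate_9A1 replicate 2, the array with the lowest Alb, and 8 were higher without aggregate_9A1 replicate 1, the array with the highest Alb. Their median was -0.23, beside -0.20 for the genes of other tissues.

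Several transcription factors of the hepatocyte state were lower. Cebpa, which drives hepatocyte metabolism and slows division, gave 12.22, 12.05, 12.02 and 11.27 in aggregates and 10.79, 10.63, 10.53 and 10.25 in Matrigel, close to the basal mean of 10.57. Its change was -1.34 ± 0.17 (SE, limma adjusted p = 0.000137), with no overlap. Hnf4g was lower by -1.68, the carbohydrate sensor Mlxipl by -1.17 and the drug sensor Nr1i2 by -1.09, and the fat sensor Ppara by -0.47. Hnf4a, the central factor of hepatocytes, moved by -0.40 (adjusted p = 0.0244, but 0.0881 without aggregate_9A1 replicate 2, limma). Foxa1 and Foxa2, the pioneer factors of early liver, went the other way: Foxa1 gave 8.38, 7.77, 9.30 and 8.62 in aggregates and 9.97, 9.73, 10.96 and 10.48 in Matrigel, higher by 1.77, and Foxa2 by 1.06. In all, 16 of 33 were lower and 5 higher, and the 5 became 3 without any of Matrigel_14B3 replicate 2, either array of Matrigel_9A1, aggregate_14B3 replicate 2, aggregate_9A1 replicate 2 or either array of basal_9A1, and with arrays centred on their median.

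Brush border and gut genes were lower in 26 of 41 and higher in 4 (2 without aggregate_9A1 replicate 2), with a median of -0.68. The list joins genes of the microvilli of gut and kidney epithelium, in part shared by the bile canaliculus, with other gut genes. Its largest rise was that of Clca3b (1.02). The aminopeptidase Anpep gave 11.66, 12.14, 10.41 and 11.36 in aggregates and 7.91, 8.62, 8.52 and 8.98 in Matrigel, 7.38-fold lower (adjusted p = 6.07e-06, limma). Lactase (Lct) and trehalase (Treh), disaccharidases of the intestine, were lower by -2.43 and -1.81 in log2, Clec2h by -2.04 and the gut factor Cdx2 by -0.70. The sulphate transporter Slc13a1 of kidney and gut was lower by -2.61, and the gut chemokine Ccl25 by -1.56. Basal means of Lct, Treh and Clec2h (5.91, 6.66 and 5.62) were lower still.

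Some bile duct genes were higher and few junction genes were called. Of 24 bile duct genes 6 were higher (25% against 13.9% of all genes) and 1 lower (4.17% against 12.7%), with a median of -0.05. The 1 became 0 without replicate 1 of either Matrigel group or replicate 2 of either aggregate group. It became 2 with the block or without Matrigel_9A1 replicate 2, and 3 with centred arrays. Keratin 7 (Krt7) gave 10.80, 9.51, 9.30 and 9.39 in aggregates and 12.03, 11.53, 11.27 and 10.10 in Matrigel, overlapping through the first 9A1 aggregate, and was higher by 1.48 ± 0.29 (SE, limma adjusted p = 0.00287). Krt19 (0.23), Sox9 (0.31) and Cftr (-0.33) did not pass, and the Notch genes Jag1 and Notch2 were higher by 0.96 and 1.04 while the target Hes1 was lower by -0.40. That Notch list had 5 of 24 higher and 4 lower, the 4 becoming 1 without aggregate_14B3 replicate 2 and 2 without either Matrigel_14B3 array, Matrigel_9A1 replicate 1 or aggregate_9A1 replicate 1. Among 37 junction genes 3 were higher and 2 lower (4 with the block or centred arrays, 0 without aggregate_9A1 replicate 2, and 1 without Matrigel_9A1 replicate 1 or any basal array), the connexin Gja1 (2.56) standing far from the rest, whose changes ran from -0.45 (Ocln) to 0.87 (Pkp4).

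Defence genes were lower in part. Interferon-induced genes had 16 of 42 lower and 1 higher (Ifitm3, 0.82, and 2 higher with the replicate block). The lower ones included Parp14 (-0.82) and the immunoproteasome subunits Psmb10 (-0.80) and Psmb9 (-0.75). Of the 42 genes, 28 were dim in both cultures. Antioxidant genes had 13 of 33 lower and 4 higher, but 8 lower without Matrigel_9A1 replicate 1, with the metallothioneins Mt2 and Mt1 at -1.22 and -0.77. Lysosome and autophagy genes had 12 of 42 lower, with the sialidase Neu1 at -0.83, and 4 higher. The 4 became 0 without aggregate_9A1 replicate 2 and 2 without replicate 1 of either Matrigel group. For Lamp2 (0.57) another probe set of the same gene was called in the opposite direction.

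The remaining lists had fewer calls, and many of their counts turned on single arrays. Immediate early genes had 5 of 28 higher and 3 lower (Fos at -1.34 and Zfp36 at -1.27). The 3 became 8 without aggregate_14B3 replicate 2 and 5 without aggregate_9A1 replicate 2 or with the block. ER chaperones had 3 of 26 higher and 5 lower (8 with the replicate block), and growth factors and receptors 6 of 45 and 4. p53 targets had 6 of 22 higher (27.3%) and 4 lower. FoxO targets had 5 of 30 higher and 3 lower, and the 3 became 8 with the block, 7 with centred arrays, and 1 without replicate 1 of either Matrigel group or without aggregate_14B3 replicate 2. Chemokines and cytokines had 6 of 37 higher and 7 lower, and the 7 became 12 with the block, 11 with arrays centred on their median, and 4 without Matrigel_14B3 replicate 1, aggregate_14B3 replicate 2 or aggregate_9A1 replicate 2. Wnt genes had 6 of 32 higher and 0 lower, but 3 higher without replicate 1 of either Matrigel group. TGF-beta and BMP genes had 10 of 38 higher, led by Ltbp1 (1.58) and Tgfb1 (1.18), but 6 without Matrigel_9A1 replicate 1 or aggregate_9A1 replicate 2. Their 5 lower genes became 2 with quantile normalization and 1 to 3 without any 1 of the arrays other than Matrigel_9A1 replicate 2 and Matrigel_14B3 replicate 2. Proteasome genes had 8 of 27 higher, from 1 (without replicate 1 of either Matrigel group) to 19 (without Matrigel_14B3 replicate 2), and 14 with the block. They numbered 2 to 4 without any aggregate array or either basal_14B3 array, 3 with arrays centred on their median and 17 with quantile normalization. Respiratory chain genes had 10 of 55 lower, and 16 with the block. They became 2 without aggregate_9A1 replicate 2, 4 without Matrigel_9A1 replicate 1, 5 without Matrigel_14B3 replicate 2 or either aggregate_14B3 array, and 6 without Matrigel_9A1 replicate 2 or either basal_9A1 array. Hypoxia and glycolysis genes had 5 of 31 lower, from 0 (without Matrigel_14B3 replicate 1) to 12 (without Matrigel_9A1 replicate 2), and 11 with the block. They became 1 without Matrigel_9A1 replicate 1 or aggregate_9A1 replicate 2, 2 without aggregate_14B3 replicate 1 and 8 without Matrigel_14B3 replicate 2, and were 9 with centred arrays and 3 with quantile normalization. Haematopoietic, endothelial and stellate lists had 1 of 25, 2 of 23 and 4 of 22 higher and 1, 1 and 3 lower, with medians of -0.22, -0.16 and -0.19. With the block 8, 5 and 6 of them were lower, and without Matrigel_9A1 replicate 2 the counts were 6, 5 and 7. The haematopoietic count was also 3 without Matrigel_14B3 replicate 2 or aggregate_14B3 replicate 1. The endothelial count was 3 and 2 without those arrays and 0 without replicate 1 of either Matrigel group. The lower stellate count was 0 or 1 without any array other than Matrigel_9A1 replicate 2, Matrigel_14B3 replicate 2 or aggregate_14B3 replicate 1, and the higher count was 2 without any aggregate array, Matrigel_9A1 replicate 1 or Matrigel_14B3 replicate 2.

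The lines were then compared in their response. Within 9A1 alone 1161 genes (9.37%) were higher and 777 (6.27%) lower, and within 14B3 alone 886 (7.15%) and 726 (5.86%). Of the 1728 higher genes 1692, and of the 1579 lower genes 1575, had the same direction in both lines. The change itself differed between lines for 52 genes (0.42%), with 720 (5.81%) at an unadjusted p below 0.05. It was more positive in 14B3 for 24 (0.194%) and in 9A1 for 28 (0.226%). The count of 52 ran from 16 without Matrigel_14B3 replicate 2 to 104 without aggregate_9A1 replicate 1. It was 18, 22, 26 and 33 without aggregate_14B3 replicate 2, Matrigel_9A1 replicate 1, aggregate_9A1 replicate 2 and Matrigel_14B3 replicate 1, and 96 (0.775%) with the replicate block.

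Several matrix genes rose more in 9A1 than in 14B3. Follistatin-like 1 (Fstl1), a secreted glycoprotein, gave 7.43 and 6.17 in 9A1 aggregates and 11.04 and 10.57 in 9A1 Matrigel, but 5.89 and 5.72, then 6.60 and 6.38, in 14B3. The 14B3 levels stayed in the dim range, and the difference between the changes (14B3 minus 9A1) was -3.32 ± 0.51 (SE, limma adjusted p = 0.0181). Fbln2 had a difference of -3.11, with 11.99 and 11.75 in 9A1 Matrigel and 8.96 and 9.06 in 14B3 Matrigel, and the scavenger receptor gene Scara3 and the collagen chain Col6a1 had differences of -3.58 and -2.48. Enpep, a kidney and gut peptidase, gave 12.38 and 12.76 in 9A1 aggregates and 8.66 and 9.57 in 9A1 Matrigel, and between 6.20 and 6.60 in all 4 arrays of 14B3. Its change was -3.46 in 9A1 and -0.13 in 14B3 (difference 3.33 ± 0.36, SE, limma adjusted p = 0.00442).

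In 14B3 the proteoglycan core gene Srgn gave 8.27 and 7.45 in aggregates and 11.41 and 11.28 in Matrigel, while in 9A1 it stayed between 6.44 and 6.85. The difference was 3.6 ± 0.32 (SE, limma adjusted p = 0.00183). The lipase-related gene Pnliprp2 reached like levels in Matrigel in both lines (11.69 and 11.10 in 9A1, 11.82 and 11.43 in 14B3) from unlike levels in aggregates (10.43 and 9.51 against 6.90 and 6.34). The alcohol dehydrogenase Adh1 changed by -1.51 in 9A1 and 1.66 in 14B3, in opposite directions, with a mean of 0.08. Clca1 likewise changed by -1.47 and 1.64. The mucin gene Muc3 stood at -0.88 in 9A1 without a call and at 1.75 in 14B3.

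**Figure D5:**
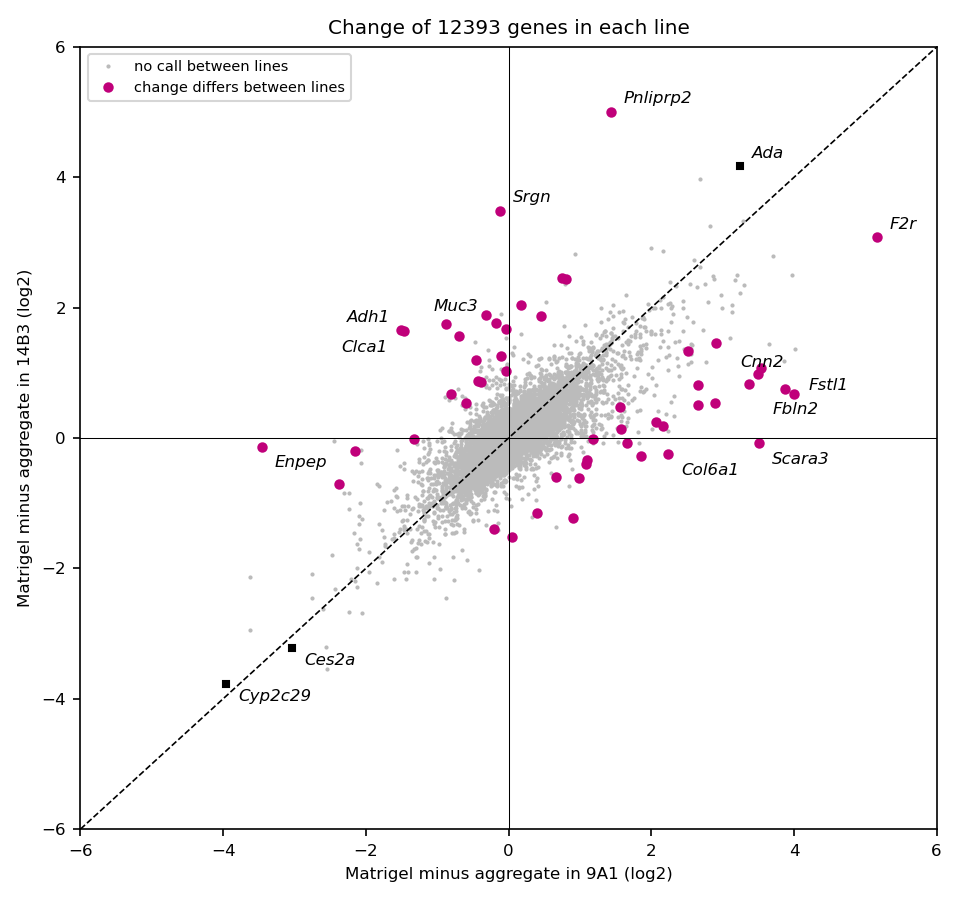
Matrigel minus aggregate change (log2) of 12393 genes in 9A1 (x axis) and 14B3 (y axis), with the 52 genes whose change differed between lines in magenta, black squares for Ada, Cyp2c29 and Ces2a, and a dashed line at equal change. Fstl1, Fbln2, Scara3 and Col6a1 lie to the right and below the dashed line (larger change in 9A1), and Srgn lies above it, near 0 in 9A1.

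Days in culture could be held equal at 1 point: the 5-day Matrigel array of 14B3 against the 2 aggregate arrays of 14B3, also of 5 days, with the lone array assumed to vary like the others. Every value at equal days rests on the label of that 1 array, which differs from those of the other 3 Matrigel arrays and could not be checked here. That array is replicate 1 and the 10-day Matrigel array of 14B3 is replicate 2, so days and replicate number cannot be told apart between them. The equal-day comparison likewise sets replicate 1 alone against aggregates of both replicates. Replicate differences of the 2 Matrigel groups correlated across genes (r 0.644). In that comparison 771 genes (6.22%) were higher and 427 (3.45%) lower. Because these arrays are also part of the main comparison, its directions are not independent: of the 1728 higher genes 1700 lay above the 5-day aggregate mean on this array and 715 were called, and of the 1579 lower genes 1569 lay below it and 416 were called. The 5-day changes of the genes described above were 3.13 for F2r, 2.26 for Cav1, 2.11 for Lamb1, 2.37 for Mki67, 1.52 for Npm1, -4.0 for Cyp2c29, -3.71 for Ces2a and -1.31 for Scp2, all called. Tnc (1.2) and Hnf4a (-0.35) were not called there. By lists, 25 of 34 replication, 25 of 41 mitosis, 24 of 29 ribosome biogenesis and 22 of 31 ribosomal protein genes were higher at equal days, and 15 of 42 fatty acid oxidation genes were lower. The higher counts there were 4 of 39 for the actin cytoskeleton, 2 of 30 for integrins and focal adhesion, 1 of 34 for the interstitial matrix and 0 of 24 for the Hippo pathway, beside 6.22% of all genes. The 10-day and the 5-day Matrigel arrays of 14B3 differed in 0 genes after adjustment in limma, with 769 (6.21%) at an unadjusted p below 0.05, which compares 1 array with 1 array.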

How the data were processed

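RNA of 12 cultures was measured on Affymetrix arrays. The authors deposited a linear intensity (14.4 to 27318) for every probe set, and the submitters' processing notes name R 2.3.1 and RMA; genome build and annotation are not given in the sources used here. RMA gives no detection call, so dim genes were kept. Probe sets were named from the platform annotation: of 22690, 20380 had 1 symbol, 691 several, 1555 none and 64 were controls. The brightest probe set stood for each of 12393 genes.

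The log2 of each value was fitted with limma 3.58.1 (lmFit, eBayes; R 4.3.3) with 6 group means over 12 arrays (two-sided; 6 df left, and a residual SD of 0.17 at the median gene). Data were also simulated with noise independent between arrays and few genes changed, alike in both lines. There 53.2%, 99.5% and 100% of genes changed by 0.5, 1 and 2 log2 units were recovered, with 4.63% false calls. In the real arrays replicate differences correlated between groups, so these rates may not hold for them.

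The members and the 45 gene lists were chosen with earlier results of these data known, so lists are described by counts and medians, with no set test. The text names the 15 largest called changes in each direction that ran the same way in both lines and did not overlap; up to 4 called members per list and direction, and other members of a list described; up to 6 line differences per direction; and 15 markers fixed by name, of which Gapdh was not measured as a single gene. Genes of other tissues and cell type markers were checked by level.

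Replicate numbers paired the samples by the data, not the labels: differences between replicates correlated across genes in all 15 pairs of groups (r 0.101 to 0.644). Blocked values, from a fit with that number as a term in each line, stand beside results only where a call changed or a count moved more than 1.5-fold. Also tried were the omission of each of the 12 arrays, other scalings, added values, probe set rules, filters, fits and single lines.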

Additional observations from a re-analysis of the deposited data

Results flagged for a closer look

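Each group of line and culture held 2 arrays, so arrays far from the others were sought in the mean level of each of the 45 lists over the 4 arrays of a culture, 90 sets of 4. Chance flags about 1 in 20 such sets, and 2 stood out. The conjugating enzymes had a mean of 9.79 in aggregate_9A1 replicate 2 against 9.80 to 9.81 in the other aggregates, a gap of 0.888 of a very small range. The haematopoietic list had a mean of 7.53 in aggregate_14B3 replicate 1 against 7.66 to 7.69.

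The change from aggregate to Matrigel differed between the lines, by the interaction term, in 17 of the genes named. As 14B3 minus 9A1 on the log2 scale the difference was positive for Srgn (3.6), Pnliprp2 (3.59), Enpep (3.33), Adh1 (3.17), Clca1 (3.11), Muc3 (2.63), Sox17 (1.95) and Ces2g (1.86). It was negative for Scara3 (-3.58), Fstl1 (-3.32), Fbln2 (-3.11), Cnn2 (-2.54), Ctla2b (-2.50), Col6a1 (-2.48), F2r (-2.08), Acta2 (-1.99) and Csrp1 (-1.84).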

How the results depend on the processing

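The counts of 1728 higher and 1579 lower genes became 771 and 427 in the 5-day comparison, 569 and 367 with replicate 2 arrays only, 385 and 187 with a change of at least 1 log2 unit, and 886 and 726 in 14B3 alone. In 9A1 alone 777 were lower, every probe set gave 2762 higher, and the replicate block gave 2550 lower. Leaving out each array gave 1265 to 1793 higher and 1130 to 1920 lower. The 52 genes that differed between lines became 22 with array weights, 20 among genes above the median level, 28 with log2(value + 32), 29 with only the 8 arrays and 96 with the replicate block, and 16 to 104 when each array was left out. The cause was not tested, beyond the fewer genes or arrays that some settings hold.

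Reversed in sign were Alb with replicate 1 only (-0.98), Psma1 with the mean of its probe sets (-0.10), and, in the 5-day comparison, Acvr2a (0.07), Cxcl12 (-0.03), Col3a1 (-0.12), Col1a1 (-0.12), Scara3 (-0.07) and Col6a1 (-0.40). In 14B3 alone Id1 (0.11), Col3a1 (-0.07), Scara3 (-0.08) and Col6a1 (-0.24) reversed, and in 9A1 alone Aqp1 (-0.04), Arg1 (-0.11), Sox17 (-0.18), Srgn (-0.12), Adh1 (-1.51) and Clca1 (-1.47). Of 267 named genes that passed, 208 kept call and direction without each of the 12 arrays in turn, and all 267 with the replicate block, under which Cdkn1a gained a call (adjusted p = 0.0488, limma) and no other named gene changed its call. Signal near background limits the genes at or below 8.59.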
